A study of Mus musculus with 24 samples.

Results

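Class II molecules of the major histocompatibility complex (MHC) present peptides from endosomes to CD4+ T cells. An alpha and a beta chain assemble around the invariant chain CD74, proteases trim CD74 down to the fragment CLIP, and the loading molecule DM exchanges CLIP for a peptide. The transactivator CIITA, which interferon gamma induces, switches on the genes of the class II chains, CD74 and DM. In the healthy mouse brain, class II protein is found mainly on dendritic cells and macrophages at the brain's borders, and microglia carry little of it.

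The 7 genes described here are H2-Aa, H2-Ab1 and H2-Eb1, which encode class II chains, Cd74, the DM genes H2-DMa and H2-DMb1, and Ciita. They were chosen by symbol, as the core genes of the pathway, with earlier results of these data known. They are 7 of 55421 genes in the deposited count table. The counts are of tags from the 3′ end of transcripts (QuantSeq) in the left brain hemisphere of 24 mice aged 3 months, all with the strain label C57BL/6J. There were 4 groups of 6 mice, which were Nox2 (Cybb) knockout mice given LPS, knockout mice given PBS, wild type mice given LPS and wild type mice given PBS. LPS (lipopolysaccharide of Salmonella abortus equi, 1 µg per g body weight per day) or PBS (phosphate-buffered saline) was injected into the peritoneum in 100 µl on each of 4 days. NOX2 forms the core of the oxidase with which phagocytes make superoxide, and the labels name no cell type to which its loss was limited.

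Libraries held 2340184 to 5256169 counts, so a level of 1 CPM (counts per 1000000 counts) stood for 2.34 to 5.26 tags. Counts of Cybb, the gene for NOX2, went against the labels. They averaged 72.0 ± 4.04 CPM in knockout-labelled LPS libraries, 67.8 ± 5.18 CPM in knockout-labelled PBS libraries, 24.7 ± 8.06 CPM in wild-type-labelled LPS libraries and 1.49 ± 0.653 CPM in wild-type-labelled PBS libraries (SD, n = 6 each). The labels do not say which part of the gene was altered, and 3′ tags outside that part check nothing. "Knockout" and "wild type" below therefore mean the libraries labelled so. Wild type LPS replicates 1 and 2 stood apart from the rest of their group, with 5.07% and 5.39% of counts in mitochondrial ribosomal RNA against 3.39 to 3.6% in replicates 3 to 6. Member calls that change without these 2 libraries are given beside the result.

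Of these genes, 5 lie together in the class II region of chromosome 17 (GRCm38, GENCODE M21). In order along the chromosome these are H2-DMa (ENSMUSG00000037649, 34119541 to 34139101, plus strand), H2-DMb1 (ENSMUSG00000079547, 34153072 to 34160230, plus), H2-Ab1 (ENSMUSG00000073421, 34257689 to 34269419, plus), H2-Aa (ENSMUSG00000036594, 34282744 to 34287823, minus) and H2-Eb1 (ENSMUSG00000060586, 34305867 to 34316674, plus). The strand setting of the authors' counting is not given in the sources used here. Tags that fall where genes overlap may therefore belong to either gene. Over whole genes, H2-DMa overlaps Brd2, CR974462.3, CR974462.4 and Gm20493, H2-Eb1 overlaps Gm20513, Cd74 overlaps Mir5107 and Ciita overlaps Dexi. The overlaps of H2-DMa lie at or before 34133614, and that of H2-Eb1 ends at 34308070, so neither reaches the 3′ end of its gene. Dexi spans the 3′ end of Ciita, and Mir5107 lies inside Cd74. In the last 500 bases of transcript, 20.4% of the 50-base stretches of H2-DMb1 also occurred in its neighbour H2-DMb2, and the other 6 genes shared none with another gene, so the H2-DMb1 value is the least certain in this respect.

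Class II promoters are textbook examples of a shared control module, in which an X box, bound by the RFX complex, stands upstream of a Y box, bound by NF-Y. CIITA binds to the proteins on this module and not to DNA. Promoter windows from 250 bases before to 50 bases after the start site were taken from RefSeq (GRCm38.p6), and 4 of the 7 genes, H2-Aa, H2-Eb1, H2-DMa and H2-DMb1, had a window that could be used. The stretches below are shown because they carry the module in 3 of these genes and in H2-Ob, a gene of the same region, on the coding strand of each. The windows of H2-Oa, H2-DMb2 and H2-Eb2, also of the region, did not hold it under either spelling searched. Capitals mark the X core and then the Y core.
H2-Aa: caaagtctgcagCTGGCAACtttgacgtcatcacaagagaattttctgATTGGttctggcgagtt
H2-Eb1: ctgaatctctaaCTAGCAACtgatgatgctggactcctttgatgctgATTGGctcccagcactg
H2-DMb1: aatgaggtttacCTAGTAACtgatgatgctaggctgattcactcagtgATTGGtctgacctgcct
H2-Ob: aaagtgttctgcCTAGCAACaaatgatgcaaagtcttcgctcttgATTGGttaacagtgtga

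These lie at chr17:34287855-34287919 on the minus strand for H2-Aa, and on the plus strand at chr17:34305761-34305824 for H2-Eb1, chr17:34153082-34153146 for H2-DMb1 and chr17:34238803-34238864 for H2-Ob. Start sites are those of RefSeq, which for H2-DMb1 lies downstream of the GENCODE gene start. The start of the Y core followed the start of the X core by 36 bases in H2-Aa, 35 in H2-Eb1, 36 in H2-DMb1 and 33 in H2-Ob. The Y core ATTGG, the reverse complement of the CCAAT box, was found on either strand in 37.4% of 32851 windows. The X core CTNGNAAC, a spelling chosen after these sequences were read, was found on either strand in 13.2% of windows, and X followed by Y on the same strand at 20 to 40 bases in 90 windows (0.274%). With the first spelling searched, CCTNGNNAC, the shares were 15.8% and 0.35%, and H2-DMb1 and H2-Ob were the only ones of these genes with the pair. Neither of the 2 windows of H2-DMa held the pair under either spelling, which says only that these letters are absent there.

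All 7 genes were at low levels in the hemisphere, as tissue of mixed cells. Summed over the 7 genes, a library held 46 to 127 tags in knockout LPS mice (median 92), 66 to 99 in knockout PBS mice (median 81), 78 to 171 in wild type LPS mice (median 123) and 44 to 108 in wild type PBS mice (median 97). As CPM, the medians of this sum were 26.1, 21.7, 32.5 and 21.2 in the same order of groups. In a whole hemisphere, more cells that carry a transcript and more transcript per cell cannot be told apart. The filter on low counts (at least 2.60 CPM in 6 libraries) kept 14380 genes, among them 6 of the 7, and Ciita failed it. Cd74 reached that level in 4 knockout LPS, 0 knockout PBS, 4 wild type LPS and 2 wild type PBS libraries, and H2-DMb1 in 1 wild type PBS library, so a gene that is higher in some groups passes more easily. Over the 24 combinations of the 6 genes and 4 groups, the SD between mice was 0.368 to 1.89 times the SD that counting alone gives, and it was the larger of the 2 in 17.

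**Figure D1:**
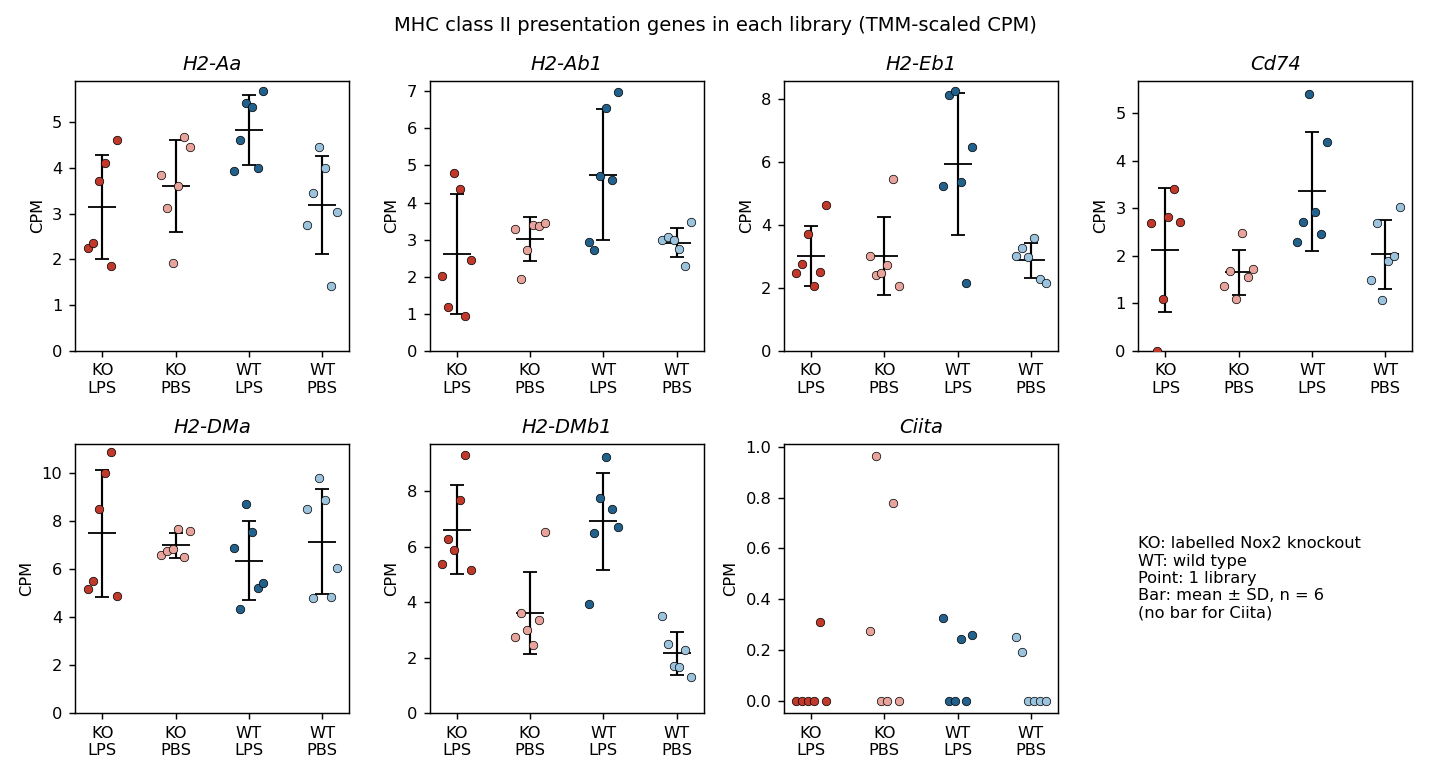
Level of each of the 7 genes in each library, in CPM, by group, with 1 point per mouse and the mean ± SD (n = 6) beside the points; Ciita is shown without mean or SD. In wild type mice the H2-DMb1 points lie higher in LPS than in PBS libraries, and Ciita lies at or near 0 throughout.

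In wild type mice, repeated LPS raised H2-DMb1 and H2-Eb1 among the 6 genes tested, and none fell. The genes of the class II chains H2-Aa and H2-Ab1, and Cd74, had positive changes that did not pass, and H2-DMa did not pass either. The test was edgeR's quasi-likelihood F test in a single fit of all 24 libraries, with Benjamini-Hochberg adjustment over 14380 genes and a call at adjusted p under 0.05. The 95% intervals are for single genes and not adjusted, so some leave out 0 without a call. By this rule 10.9% of all genes were higher after LPS in wild type mice, 7.12% were lower and 18.1% were called in either direction, against which the 2 of 6 stand. DESeq2 called the same number, 2 of 6. The median log2 change over the 6 genes was 0.76, and that over all genes tested was -0.01. Without wild type LPS replicates 1 and 2 the count was 4, with H2-Ab1 and Cd74 added, and 19.7% of all genes were called.

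In knockout mice, H2-DMb1 was the single member called, and it rose. There 7.05% of all genes were higher, 3.82% were lower and 10.9% were called in either direction. DESeq2 also called 1 of 6. The median log2 change was 0.05 over the 6 genes and -0.00 over all genes tested. Both LPS comparisons were made against their own PBS group, so their group means share no library. They are not independent, since both use the estimate of spread from the single fit of all 24 libraries.

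H2-DMb1 encodes the beta chain of DM. Its level ran from 5.16 to 9.31 CPM in knockout LPS mice (median 6.08), from 2.48 to 6.53 CPM in knockout PBS mice (median 3.19), from 3.93 to 9.22 CPM in wild type LPS mice (median 7.05) and from 1.30 to 3.50 CPM in wild type PBS mice (median 1.99). Every wild type LPS library was above every wild type PBS library, while in knockout mice PBS replicate 6, at 6.53 CPM, lay among the LPS libraries. How many of all genes separate these groups in this way was not counted, so the separation is a description only. The log2 change with LPS was 0.89 ± 0.23 (SE; 95% interval 0.43 to 1.37; adjusted p = 0.00618 by edgeR) in knockout mice, and 6 of 6 LPS libraries were above the PBS mean. It was 1.66 ± 0.25 (95% interval 1.17 to 2.17; adjusted p = 1.04e-06 by edgeR) in wild type mice, again in 6 of 6 libraries. The difference of the 2 changes, knockout minus wild type, was -0.76 ± 0.35 and was not called (unadjusted p = 0.0333, adjusted p = 0.458 by edgeR). In the PBS groups H2-DMb1 averaged 3.62 ± 1.48 CPM in knockout mice and 2.16 ± 0.786 CPM in wild type mice (SD, n = 6 each), a log2 difference of 0.67 ± 0.28 with adjusted p = 0.471 by edgeR. After LPS, knockout minus wild type was -0.10 ± 0.21 (adjusted p = 0.919 by edgeR).

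H2-Eb1 encodes the beta chain of the E molecule. C57BL/6 mice make no functional alpha chain of E, and the pseudogene entry for it, H2-Ea-ps, had 0 counts in all 24 libraries. H2-Eb1 ran from 2.05 to 4.62 CPM in knockout LPS mice (median 2.61), from 2.06 to 5.46 CPM in knockout PBS mice (median 2.58), from 2.15 to 8.23 CPM in wild type LPS mice (median 5.90) and from 2.16 to 3.58 CPM in wild type PBS mice (median 2.99). The wild type LPS libraries lay above the others' medians, apart from its replicate 5 at 2.15 CPM, which lay just below the lowest wild type PBS library. In knockout mice the log2 change with LPS was -0.00 ± 0.29 (95% interval -0.59 to 0.58; adjusted p = 0.997 by edgeR). In wild type mice it was 1.02 ± 0.25 (95% interval 0.51 to 1.54; adjusted p = 0.00263 by edgeR), with 5 of 6 libraries above the PBS mean, and it was called in all 31 alternatives run.

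After LPS, H2-Eb1 was lower in knockout than in wild type mice, at 3.01 ± 0.962 CPM against 5.93 ± 2.26 CPM (SD, n = 6 each). This log2 difference of -0.98 ± 0.26 (95% interval -1.51 to -0.47; adjusted p = 0.0426 by edgeR) was the single call among the 6 genes between the genotypes after LPS, where 0.786% of all genes were lower and 1.05% were called in either direction. The groups overlapped, although all 6 knockout libraries were below the wild type mean. The log2 difference was -1.14 to -0.86 over 31 alternatives, and the call was lost in 13 of them, with adjusted p over all 31 of 0.00771 to 0.143. These were DESeq2 (0.0777), a fit of these 2 groups only (0.0779), the fit without wild type LPS replicates 1 and 2 (0.0623), and those without any of knockout LPS replicates 1 to 5, wild type LPS replicates 2, 3, 4 and 6, or wild type PBS replicate 4. The difference of the LPS changes, knockout minus wild type, was -1.02 ± 0.39 and was not called (unadjusted p = 0.0113, adjusted p = 0.357 by edgeR), so a response in wild type mice that differs from that in knockout mice is not shown for this gene. Markers of several cell types were also lower in knockout than in wild type mice after LPS. These were 4 of 8 tested endothelial markers (Esam, at a log2 difference of -0.51 ± 0.08, Abcb1a, Cldn5 and Pecam1), 2 of 11 microglial markers (Cx3cr1, at -0.41 ± 0.09, and Sall1), 1 of 6 monocyte markers (Lyz2, at -0.67 ± 0.12) and 1 of 7 neutrophil markers (Mmp9, at -0.86 ± 0.21), and 0 of these lists' markers were higher. Without wild type LPS replicates 1 and 2 the counts were 3 of 8, 2 of 11, 2 of 6 and 3 of 8, where 3.82% of all genes were called. In the other lists, with all libraries, 0 of 7 border macrophage, 0 of 4 dendritic cell and 0 of 2 B cell markers were called. The same was true of 2 T and NK cell, 6 neuronal and 4 erythrocyte markers. Slc1a3 was lower (1 of 6 astrocyte markers) and Ttr higher (1 of 7 choroid plexus markers). Without those 2 libraries Stab1 (1 of 7 border macrophage markers) was lower and Snap25 (1 of 6 neuronal markers) higher. The part of these cells in the difference was not tested.

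**Figure D2:**
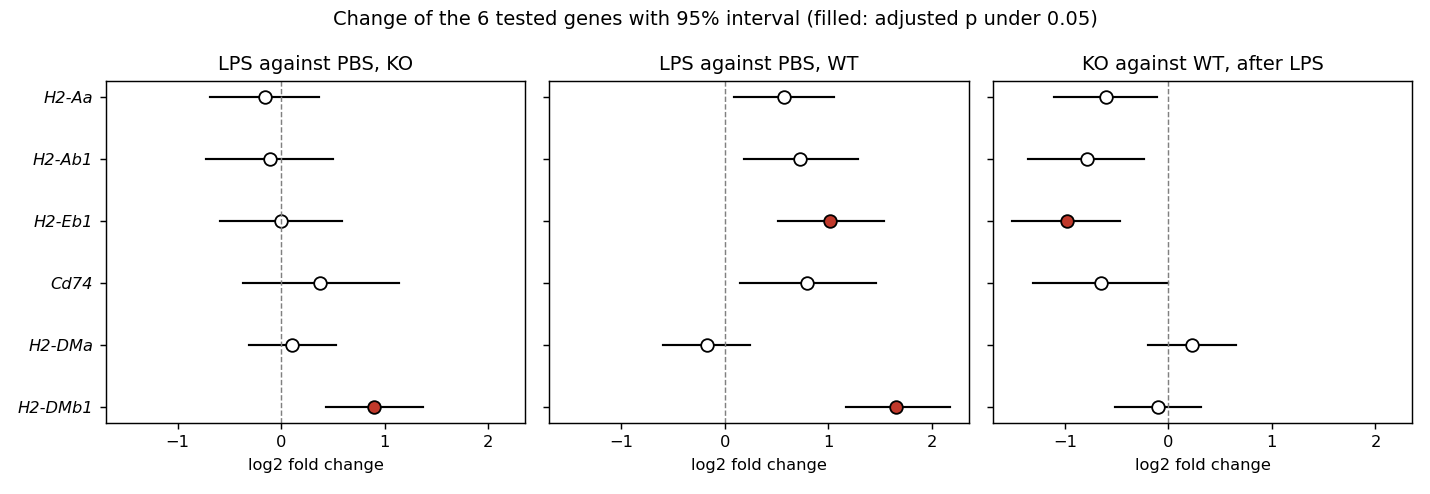
Log2 change of the 6 genes tested with its 95% interval from edgeR, for LPS against PBS in knockout mice, for LPS against PBS in wild type mice and for knockout against wild type mice after LPS (n = 6 a group), with filled points where the adjusted p passed. H2-DMb1 is filled for LPS in both genotypes, H2-Eb1 for LPS in wild type mice and, below 0, for knockout against wild type, and the intervals of H2-DMa span 0 in all 3 panels.

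H2-Aa and H2-Ab1 encode the alpha and beta chains of the A molecule, the class II molecule that C57BL/6 mice do display. H2-Aa ran from 1.86 to 4.62 CPM in knockout LPS mice (median 3.03), from 1.91 to 4.68 CPM in knockout PBS mice (median 3.72), from 3.93 to 5.69 CPM in wild type LPS mice (median 4.97) and from 1.42 to 4.46 CPM in wild type PBS mice (median 3.24). All 6 wild type LPS libraries were above the wild type PBS mean, but the ranges met between 3.93 and 4.46 CPM. The log2 change with LPS was -0.16 ± 0.26 (adjusted p = 0.802 by edgeR) in knockout mice and 0.57 ± 0.24 (95% interval 0.09 to 1.06; adjusted p = 0.0951 by edgeR) in wild type mice. The wild type interval leaves out a fall and a rise beyond 1.06.

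H2-Ab1 ran from 0.931 to 4.80 CPM in knockout LPS mice (median 2.23), from 1.93 to 3.44 CPM in knockout PBS mice (median 3.33), from 2.71 to 6.98 CPM in wild type LPS mice (median 4.66) and from 2.28 to 3.46 CPM in wild type PBS mice (median 2.99). The lowest wild type LPS libraries were replicates 1 and 2, at 2.95 and 2.71 CPM, the same 2 that stood apart by mitochondrial ribosomal RNA. In all, 4 of the 6 wild type LPS libraries lay above the whole PBS range. The log2 change with LPS was -0.11 ± 0.30 (95% interval -0.73 to 0.50; adjusted p = 0.888 by edgeR) in knockout mice. In wild type mice it was 0.73 ± 0.27 (95% interval 0.18 to 1.28; adjusted p = 0.054 by edgeR), which just failed the test. Without replicates 1 and 2 it was 0.97 and passed (adjusted p = 0.00798 by edgeR, range over 31 alternatives 0.00798 to 0.172). It also passed in a fit of the 2 groups only (adjusted p = 0.042 by edgeR), and without knockout LPS replicate 2, 3 or 5 or wild type LPS replicate 1 or 2, 7 alternatives in all. The comparison of knockout with wild type mice after LPS also changed without them, with a log2 difference of -1.04 and adjusted p = 0.0247 by edgeR, against -0.79 ± 0.28 and 0.189 with all libraries.

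Cd74 (ENSMUSG00000024610; chromosome 18, 60803848 to 60812652, plus strand) encodes the invariant chain, which guides class II chains from the endoplasmic reticulum to endosomes. It had 0 to 3.42 CPM in knockout LPS mice (median 2.7), 1.09 to 2.48 CPM in knockout PBS mice (median 1.62), 2.29 to 5.41 CPM in wild type LPS mice (median 2.81) and 1.06 to 3.03 CPM in wild type PBS mice (median 1.94). Knockout LPS replicate 2 had no tag of Cd74. The log2 change with LPS was 0.38 ± 0.37 (95% interval -0.37 to 1.14; adjusted p = 0.632 by edgeR) in knockout mice and 0.80 ± 0.32 (95% interval 0.15 to 1.46; adjusted p = 0.0798 by edgeR) in wild type mice. The wild type change passed without replicates 1 and 2 (0.96, adjusted p = 0.0447 by edgeR) and without knockout LPS replicate 2, which enters the shared estimate of spread. These 3 genes had unadjusted p under 0.05 in wild type mice, as did H2-Eb1 and H2-DMb1, so 5 of 6 members met that looser limit there and 1 of 6 in knockout mice, where 29.8% of all genes met it in wild type and 21.7% in knockout mice.

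H2-DMa encodes the alpha chain of DM and had the highest mean tag level of the 7 genes in 3 of the 4 groups, with H2-DMb1 above it in wild type LPS mice. It ran from 4.89 to 10.9 CPM in knockout LPS mice (median 7.0), from 6.50 to 7.66 CPM in knockout PBS mice (median 6.79), from 4.34 to 8.71 CPM in wild type LPS mice (median 6.15) and from 4.81 to 9.78 CPM in wild type PBS mice (median 7.27). The 4 ranges overlapped. The log2 change with LPS was 0.10 ± 0.21 (95% interval -0.31 to 0.52; adjusted p = 0.845 by edgeR) in knockout mice and -0.18 ± 0.21 (95% interval -0.60 to 0.25; adjusted p = 0.632 by edgeR) in wild type mice, so a change beyond 0.60 in either direction lies outside both intervals. Tags from the stretches where other genes overlap H2-DMa may belong to those genes, although these stretches do not reach its 3′ end.

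Ciita (ENSMUSG00000022504; chromosome 16, 10480059 to 10528418, plus strand) encodes the transactivator. It had 1 tag in the 6 knockout LPS libraries, 8 tags in the 6 knockout PBS libraries, 3 tags in the 6 wild type LPS libraries and 2 tags in the 6 wild type PBS libraries. Of the 24 libraries, 5, 3, 3 and 4 in the same order held none. Since Dexi spans the 3′ end of Ciita, some of these tags may belong to Dexi. The ratio of LPS over PBS, scaled to the total counts, was 0.127 in knockout mice (exact 95% interval 0.00286 to 0.947) and 1.66 in wild type mice (0.190 to 19.8). These intervals cover counting error only, and the 8 knockout PBS tags were unevenly spread, with up to 4 in 1 library. A change in Ciita of several fold was not detectable in wild type mice at this depth.

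The order of the groups was therefore not the same for all members. For H2-Aa, H2-Ab1 and H2-Eb1, the wild type LPS mean was the highest of the 4, and the other 3 group means lay between 2.62 and 3.6 CPM, with no difference called among them. For H2-DMb1 both LPS groups (6.62 ± 1.59 CPM in knockout and 6.92 ± 1.76 CPM in wild type mice) lay above both PBS groups. For H2-DMa the 4 means lay between 6.35 and 7.48 CPM, and no comparison was called. No member was called between knockout and wild type mice after PBS, where 0.132% of all genes were called (0.0417% higher and 0.0904% lower). There 1 of 6, H2-DMb1, had unadjusted p under 0.05, as had 8.73% of all genes, and DESeq2 called 0 of 6. None was called for a difference of the LPS changes, where 0.00695% of all genes (1 gene, Cybb itself) were called. There H2-Aa, H2-Ab1, H2-Eb1 and H2-DMb1, 4 of 6, had unadjusted p under 0.05, all with the smaller change in knockout mice, as had 9.78% of all genes in either direction, and DESeq2 called 0 of 6.

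DM works as a pair of 1 alpha and 1 beta chain, so its 2 genes were set against each other within each library, as the log2 ratio of counts after 0.5 was added to each. The ratio of H2-DMb1 to H2-DMa, chosen after the values were seen, was -0.13 ± 0.28 in knockout LPS mice and -0.99 ± 0.46 in knockout PBS mice (SD, n = 6 each). It was 0.12 ± 0.51 in wild type LPS mice and -1.67 ± 0.68 in wild type PBS mice. The LPS minus PBS difference was 0.86 in knockout mice (two-sided exact permutation p = 0.00866, adjusted over 20 ratio tests 0.0866). It was 1.79 in wild type mice (exact p = 0.0022, the smallest that 924 splits can give; adjusted p = 0.0433). Adjustment over 20 tests does not allow for the choice of this ratio, so its p-values add no support to the H2-DMb1 calls. With single libraries left out the wild type difference was 1.63 to 1.97, and it was 1.90 without wild type LPS replicates 1 and 2. Its adjusted p was 0.0866 when any wild type PBS library was left out and when those 2 were, where 210 splits allow no exact p below 0.0048. In knockout mice the difference was 1.02 without PBS replicate 6, with adjusted p = 0.0217 by the exact test.

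The other ratios ask whether the chains and Cd74 moved by the same factor as H2-Ab1. The ratios of H2-Aa, H2-Eb1 and Cd74 to H2-Ab1 differed between groups by -0.27 to 0.40 on the log2 scale, with adjusted p of 0.753 to 0.950 in exact permutation tests. The ratio of H2-DMa to H2-Ab1 changed by -0.75 with LPS in wild type mice (exact p = 0.0325, adjusted 0.162). After LPS it was higher by 1.16 in knockout than in wild type mice (exact p = 0.0173, adjusted 0.115). Neither passed after adjustment.

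**Figure D3:**
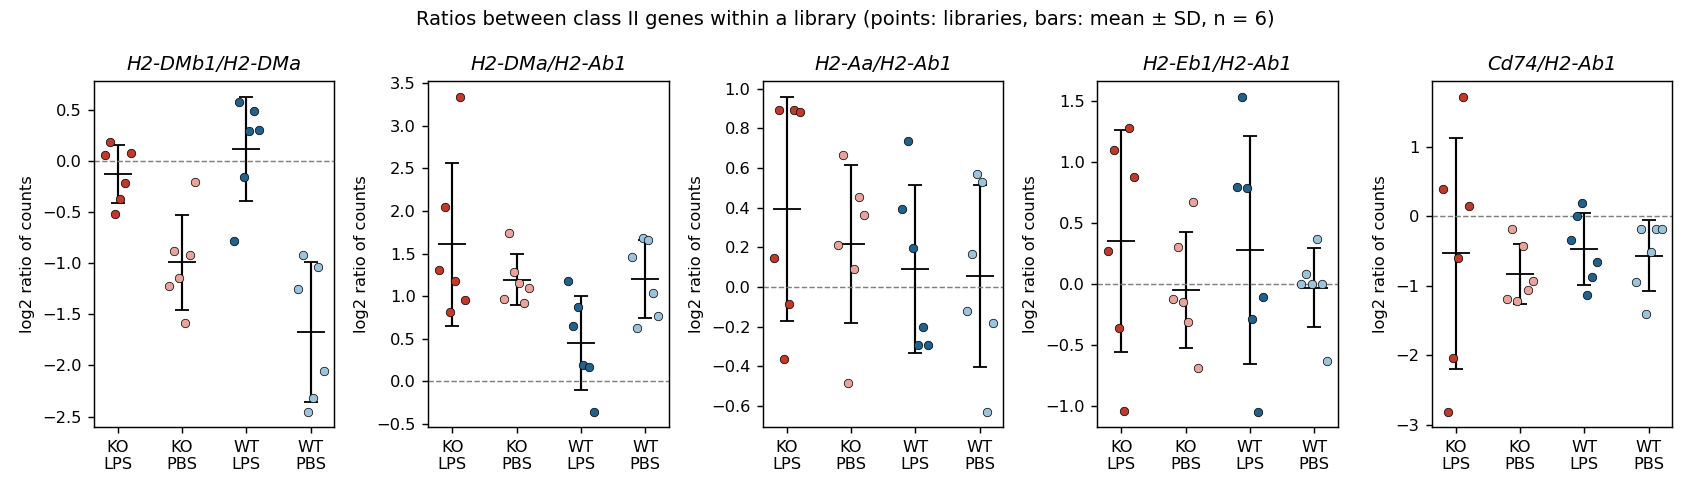
Log2 ratio of counts within each library for H2-DMb1 over H2-DMa and for the ratios over H2-Ab1, by group, with 1 point per mouse and the mean ± SD (n = 6). The mean H2-DMb1 to H2-DMa ratio is near 0 in both LPS groups, and every PBS library is below 0, while the ratios of H2-Aa, H2-Eb1 and Cd74 to H2-Ab1 overlap in all 4 groups.

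The genes that work with the members were taken in lists chosen with earlier results of these data known. The list of processing and turnover genes (among them proteases that cut CD74 and antigen, a protease inhibitor and ligases) had 15 of its 17 entries tested. In knockout mice 9 rose and 0 fell, and in wild type mice 10 rose and 0 fell, with medians of 0.31 and 0.46 against -0.00 and -0.01 over all genes. Of all genes, 7.05% were higher in knockout and 10.9% in wild type mice. Ctss, cathepsin S, which makes the final cuts in CD74, rose by a log2 change of 1.93 ± 0.07 in knockout and 1.67 ± 0.07 in wild type mice. Ctsh, cathepsin H, rose by 1.76 ± 0.12 in knockout and 1.74 ± 0.11 in wild type mice. Ctsd, cathepsin D, an aspartic protease, rose by 0.65 ± 0.06 in knockout and 1.04 ± 0.06 in wild type mice. Ifi30, the lysosomal thiol reductase GILT, rose by 2.10 ± 0.22 in knockout and 2.33 ± 0.21 in wild type mice. Ctsc, cathepsin C, rose by 1.75 ± 0.19 in knockout and 2.24 ± 0.18 in wild type mice. After LPS, 2 of the 15 were lower in knockout than in wild type mice, against 0.786% of all genes. The log2 difference was -0.31 ± 0.06 (adjusted p = 0.00114 by edgeR) for Ctsd and, for Cst3 (cystatin C, a protease inhibitor), -0.24 ± 0.06 (adjusted p = 0.0230 by edgeR). Without wild type LPS replicates 1 and 2 this count was 4, with Ctsc and Lamp1 added, where 3.82% of all genes were called in either direction.

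The list of enhanceosome genes holds the proteins that bind the X and Y boxes, the co-activators that CIITA recruits and, besides these, Nlrc5. Nlrc5 was below the filter, with 16 tags in knockout LPS, 6 in knockout PBS, 16 in wild type LPS and 7 in wild type PBS libraries. Of its 11 genes, 10 were tested and 0 were called in any of the 5 comparisons, by edgeR and by DESeq2. At unadjusted p under 0.05 there were 3 of 10 for LPS in knockout mice and 1 of 10 for LPS in wild type mice, and 1, 1 and 0 in the PBS, LPS and difference comparisons between genotypes. The shares of all genes at that limit were 21.7%, 29.8%, 8.73%, 11.4% and 9.78% in the same order. The RFX subunit gene Rfx5 had a log2 change with LPS of 0.02 ± 0.10 in knockout and 0.06 ± 0.10 in wild type mice. The median log2 change over the list was 0.00 in knockout and 0.04 in wild type mice.

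Of the genes that lead from interferon gamma to CIITA, 11 of 12 were tested, and 4 rose and 0 fell with LPS in each genotype. The share of all genes that rose was 7.05% in knockout and 10.9% in wild type mice. Ifngr1, a chain of the interferon gamma receptor, rose by 0.88 ± 0.10 in knockout and 1.09 ± 0.10 in wild type mice. Irf1 rose by 0.87 ± 0.16 and Irf8 by 1.29 ± 0.15 in knockout mice, against 1.33 ± 0.17 and 1.47 ± 0.15 in wild type mice. Spi1, which encodes the myeloid factor PU.1, rose by 1.59 ± 0.20 in knockout and 2.35 ± 0.20 in wild type mice. Ifng itself had 2 tags in knockout LPS libraries and 0 in the other 3 groups. The medians over the 11 genes were 0.24 in knockout and 0.29 in wild type mice.

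Of the genes for co-stimulation and contact with T cells, 5 of 10 were tested, and 4 of these rose in each genotype. Among all genes 7.05% rose in knockout and 10.9% in wild type mice. Icam1, an adhesion molecule, rose by 4.28 ± 0.38 in knockout and 3.74 ± 0.33 in wild type mice. Cd86, a ligand of CD28, rose by 1.73 ± 0.33 in knockout and 1.22 ± 0.32 in wild type mice. Icosl, the ligand of ICOS, rose by 1.11 ± 0.17 in knockout and 1.3 ± 0.16 in wild type mice. Havcr2, which encodes TIM-3, rose by 1.39 ± 0.36 in knockout and 1.34 ± 0.34 in wild type mice. On the T cell side, 1 of 8 genes was tested, Cd4, with 0.02 ± 0.29 in knockout and 0.04 ± 0.30 in wild type mice, and neither was called.

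**Figure D4:**
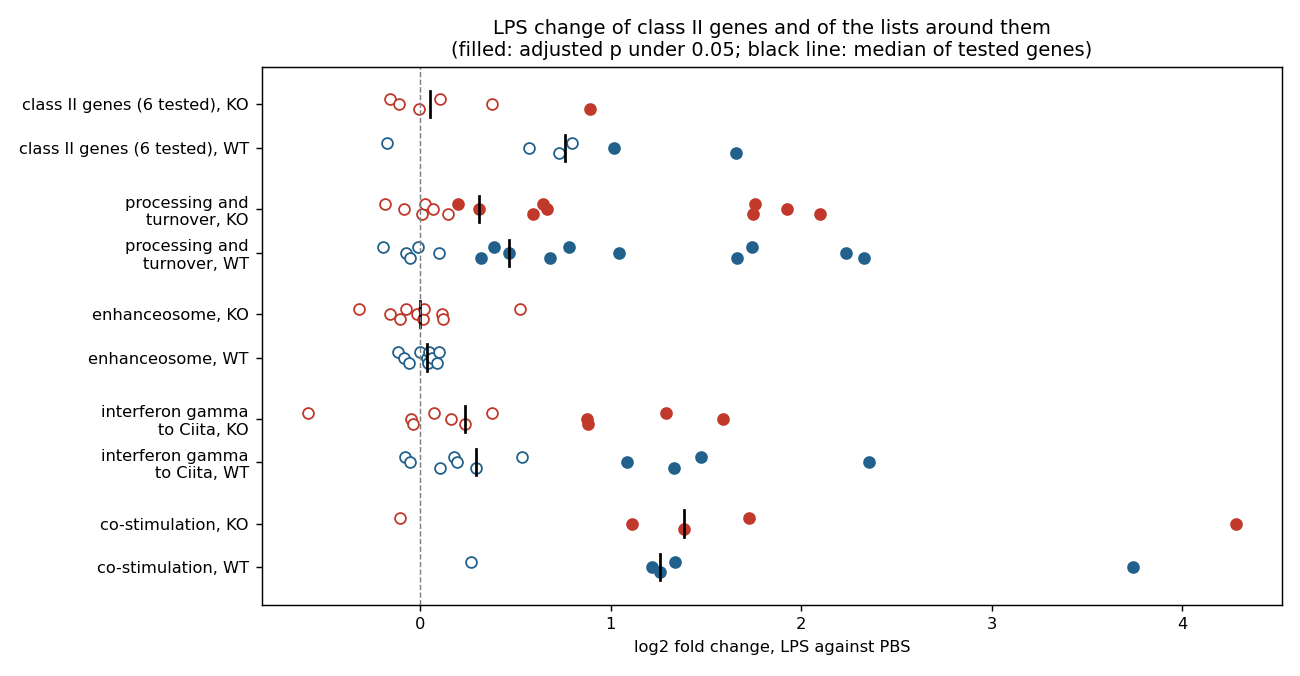
Log2 change with LPS in knockout mice (KO) and in wild type mice (WT) for the 6 class II genes tested and each tested gene of 4 lists, with 1 point per gene, filled where edgeR called it, and a black line at the median. Processing and turnover genes lie mostly above 0, and the 10 enhanceosome genes lie around 0 with none called.

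The other class II genes of the region were below the filter, so they are given as tags summed over 6 libraries. H2-DMb2, the second DM beta gene, had 13 in knockout LPS, 6 in knockout PBS, 10 in wild type LPS and 8 in wild type PBS libraries. H2-Oa and H2-Ob encode the DO molecule, an inhibitor of DM. H2-Oa had 7, 5, 11 and 1 in the same order, a ratio of LPS over PBS in wild type mice of 12.2 (exact 95% interval 1.77 to 523, counting error only). H2-Ob had 8, 5, 9 and 5, and H2-Eb2 had 1, 1, 2 and 2.

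Dendritic cells and B cells carry class II without stimulation, and most of their markers were too low to test. Of 11 dendritic cell markers, Xcr1, a receptor of conventional dendritic cells, had 0 tags in all groups. Clec9a had 1 tag in knockout LPS, 3 in knockout PBS, 2 in wild type LPS and 2 in wild type PBS libraries, and Cd209a had 0, 1, 0 and 7 in the same order. Itgax, the integrin CD11c, which other myeloid cells can also carry, had 36, 10, 41 and 6 tags, more in the LPS than in the PBS libraries of both genotypes. The summed level of the 11 markers, of which Zbtb46 supplied the largest share, was 43.0 to 50.2 CPM in knockout LPS, 37.5 to 56.9 CPM in knockout PBS, 41.8 to 50.4 CPM in wild type LPS and 44.1 to 53.7 CPM in wild type PBS mice. Of the 4 markers that passed the filter, 0 rose with LPS, against 7.05% of all genes in knockout and 10.9% in wild type mice. Siglech, which is on the microglial list as well, fell in wild type mice, where 7.12% of all genes fell. Among 10 B cell markers, Cd79a had 0, 1, 2 and 0 tags and Cd79b had 8, 1, 13 and 2 in the same order of groups. Of the 2 B cell markers tested, Ighm fell in both genotypes, by 0.71 ± 0.18 on the log2 scale in knockout mice and by 0.75 ± 0.18 in wild type mice. Among all genes 3.82% fell in knockout and 7.12% in wild type mice.

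Markers of macrophage-like cells, neutrophils and endothelial cells rose with LPS in both genotypes. For the counts below, 7.05% of all genes rose in knockout and 10.9% in wild type mice, and 3.82% and 7.12% fell. The sum of 9 border macrophage markers was 58.5 to 78.5 CPM in knockout LPS and 18.8 to 22.6 CPM in knockout PBS mice, and 72.9 to 105 CPM in wild type LPS and 20.5 to 28.5 CPM in wild type PBS mice. Of 7 tested, 7 rose in knockout and 6 in wild type mice. The sum of 8 monocyte markers was 151 to 236 CPM in knockout LPS and 32.0 to 47.4 CPM in knockout PBS mice, and 196 to 334 CPM in wild type LPS and 36.6 to 51.3 CPM in wild type PBS mice, with 6 of 6 tested higher in each genotype. Of 11 microglial markers, 7 rose in knockout mice, and 8 rose and 1, the same Siglech, fell in wild type mice. Their sum was 399.5 to 526 CPM in knockout LPS and 249 to 275 CPM in knockout PBS mice, and 467 to 610 CPM in wild type LPS and 248 to 297 CPM in wild type PBS mice. Of 10 neutrophil markers, 7 were tested and all 7 rose in each genotype, with median log2 changes of 2.90 in knockout and 4.30 in wild type mice. Of 8 endothelial markers, 7 rose in knockout and 8 in wild type mice. Gzma, a granzyme of T and NK cells, rose in both genotypes, 1 of 2 markers tested of those cells. The 4 globin genes tested fell in both genotypes, with median log2 changes of -3.38 in knockout and -3.31 in wild type mice. The part of all these cells in the class II changes was not tested.

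Genes with the pattern most like that of H2-Aa, H2-Ab1, H2-Eb1 and Cd74 were ranked among 14374 others by Pearson's r with their mean over the 24 libraries, after each group's mean had been removed, and predicted genes were passed over. The first 5 were Btk (0.822), Klhl5 (0.772), H2-D1 (0.749), Ift27 (0.745) and S100a11 (0.721). With group means kept, they were Klhl5 (0.829), Aprt (0.735), Gcnt1 (0.731), Tnfaip8 (0.722) and Cks1b (0.716), where 2 predicted genes ranked between Klhl5 and Aprt. The 24 points share their libraries, depth and groups, and low counts limit r, so these ranks are a description. With group means removed, r with the mean of the other 3 was 0.561 for H2-Aa, 0.403 for H2-Ab1, 0.216 for H2-Eb1 and 0.20 for Cd74. Against the mean of all 4, r was 0.198 for H2-DMa and 0.00886 for H2-DMb1.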

How the data were processed

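The deposited table holds raw counts of 3′ tags per gene, which the authors made with bcl2fastq, STAR 2.7.3a and featureCounts (Subread 2.0.0) on mm10/GRCm38, per the submitters' processing notes, which also list R 3.6.1 and DESeq2 1.26.0. Annotation release, strand setting and treatment of multi-mapping or duplicate reads: not given in the sources used here. Libraries were prepared from 100 ng total RNA. The lowest chi-square per degree of freedom between 2 libraries of a group was 1.41, so each library was counted as a sample of its own.

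Counts were fitted with edgeR 4.0.16 (R 4.3.3; TMM, filterByExpr with minimum count 10, quasi-likelihood F test, 20 residual degrees of freedom), checked on simulated data. CPM were computed from the counts and TMM factors. Ratios were tested with exact permutation in SciPy 1.17.1. DESeq2 1.42.0, other scalings, no filter, 2 groups only, a replicate block, an added limit on size and left-out libraries were tried. Members and lists were chosen with earlier results of these data known. List genes named are the up to 4 smallest p among those called per LPS comparison; genes outside this rule (Rfx5, Cd4, Lamp1 and the single cell type markers) were named after their values were seen. Positions come from GENCODE M21. The edgeR intervals include the spread between mice. The exact intervals of count ratios cover counting error only, since no molecular identifiers are known.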

Additional observations from a re-analysis of the deposited data

Results flagged for a closer look

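In 28 group values looked at (7 genes in 4 groups), the gap between the extreme library and its nearest neighbour, as a share of the group's range, passed Dixon's limit of 0.625 in 3, and chance does so in about 5% of groups. H2-Eb1 in knockout PBS mice was highest in replicate 5, at 5.46 CPM with the next at 3.01 CPM, a share of 0.719. H2-DMb1 in knockout PBS mice was highest in replicate 6, at 6.53 CPM with the next at 3.61 CPM, also 0.719. Ciita in knockout LPS mice had its only tag in 1 library (0.31 CPM), with the others at 0, which gives a share of 1.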

How the results depend on the processing

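H2-DMb1 after LPS in both genotypes and H2-Eb1 after LPS in wild type mice kept their calls and direction in all 31 alternatives that were judged by adjusted p alone. With a log2 change over 1 required as well, the called genes numbered 438 for LPS in knockout mice and 532 in wild type mice, 10 between genotypes after PBS and 23 after LPS, with 0 members for LPS in knockout mice and 0 between genotypes after LPS. Without wild type LPS replicates 1 and 2 there were 4 members among 2898 genes for LPS in wild type mice, and 36 genes between genotypes after PBS, 561 after LPS and 249 for the difference of changes. With no filter the last 3 counts were 88, 293 and 67. In fits of 2 groups only, 33 genes were called between genotypes after PBS, and 0 members after LPS. Same-numbered mice did not deviate together (correlations of -0.061 to 0.084), and with the replicate block 39 genes were called between genotypes after PBS, 273 after LPS and 8 for the difference of changes. DESeq2 called 2 genes for the difference of changes and 0 members between genotypes after LPS. The causes were not tested.

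With 1 library left out, the counts were 1317 to 1630 for LPS in knockout mice (1 member), 2214 to 2754 in wild type mice (2 to 4 members), 13 to 32 between genotypes after PBS, 72 to 289 after LPS (0 to 1 member) and 1 to 20 for the difference of changes. The lowest count after LPS was without wild type LPS replicate 4 and the highest without replicate 2. Values near 0 changed sign. For LPS in knockout mice the log2 change was -0.39 to 0.042 for H2-Ab1, -0.16 to 0.25 for H2-Eb1 (0.0012 with total counts only) and -0.015 to 0.21 for H2-DMa. Knockout minus wild type after PBS was -0.0099 to 0.25 for H2-Aa, -0.0025 to 0.16 for H2-Ab1, -0.21 to 0.11 for H2-Eb1 and -0.17 to 0.066 for H2-DMa, and after LPS it was -0.21 to 0.0033 for H2-DMb1. The log2 ratio of Cd74 to H2-Ab1 moved by -0.15 to 0.76 for LPS in knockout mice, -0.067 to 0.23 in wild type mice and -0.51 to 0.39 between genotypes after LPS. That of H2-Aa to H2-Ab1 moved by -0.10 to 0.14 for LPS in wild type mice, and that of H2-DMa to H2-Ab1 by -0.13 to 0.083 between genotypes after PBS. That of H2-Eb1 to H2-Ab1 moved by -0.16 to 0.11 after PBS and -0.19 to 0.35 after LPS between genotypes. Without wild type LPS replicates 1 and 2, the ratios to H2-Ab1 changed with LPS in wild type mice by -0.049 (Cd74), -0.20 (H2-Aa) and -0.14 (H2-Eb1), and that of Cd74 between genotypes after LPS by 0.083 (0.047 when 1 was added to each count). Depth limits these results, at 0 to 46 tags per gene and library.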
